A study of Mus musculus with 12 samples.

Results

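The cytosolic ribosomal protein genes encode the protein parts of the 60S and 40S subunits of the ribosome that translates nuclear-encoded mRNAs. Members were taken by symbol: Rpl or Rps followed by digits and at most 1 final letter a, x or l, together with Rpsa, Rplp0, Rplp1 and Rplp2, and without Rps4l. Each gene was read from its brightest probe set annotated to that gene alone. This gave 45 of the 18194 genes on the array, 24 of the 60S and 21 of the 40S subunit. Of these, 42 passed a filter on dim genes (22 of the 60S and 20 of the 40S subunit) and entered the tests, whereas Rpl39l, Rpl3l and Rps16 did not. A further 28 genes under the same rule, among them Rpl3, Rpl5, Rpl10, Rplp1 and Rpl36a, had only probe sets annotated to several genes, mostly their own pseudogenes, and were not analysed as genes here, nor were Rpl10l and Rps27a.

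In mammals, the mRNAs of ribosomal proteins start with a cytosine and a run of pyrimidines, the 5′ terminal oligopyrimidine tract (TOP). The kinase complex mTORC1 controls how well such TOP mRNAs are translated, through LARP1 and the binding proteins of the cap-binding factor eIF4E, largely without changing the amount of mRNA. Rictor belongs to the sister complex mTORC2, which phosphorylates AKT and other AGC kinases and has been found bound to ribosomes. Ribosomal proteins are made in matched amounts, and loss of 1 copy of several of them causes Diamond-Blackfan anemia in humans, a failure of red cell production.

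Leukemia cells labelled K+G– were sorted from mouse bone marrow after transplant round 1, at more than 50% CD45.2+ cells among the white blood cells of the blood, and their RNA was hybridised to 12 Affymetrix arrays. The groups were MLL-AF9 leukemia with RictorΔ/Δ (Rictor deletion), MLL-AF9 leukemia with wild-type Rictor (Control), MLL-NRIP3 leukemia with RictorΔ/Δ and MLL-NRIP3 leukemia with wild-type Rictor, with 3 arrays each. All groups carried an MLL fusion, a chimeric gene that drives leukemia, so the controls are leukemic too. The labels used here do not state how Rictor was deleted, the age of the mice, or whether each array came from its own mouse. The p-values therefore describe the spread from array to array, which may be technical.

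Rictor itself was read first. Its brightest probe set, 1435698_at, read 77.9 to 96.4 in Rictor-deleted and 83.7 to 92.4 in control MLL-AF9 leukemia, and 84.5 to 121 in Rictor-deleted and 87.5 to 139 in control MLL-NRIP3 leukemia. In MLL-AF9 leukemia the dim 1429810_at read 24.5 to 26.5 in Rictor-deleted against 29.3 to 32.9 in control cells, and the dim 1441753_at read 14.8 to 19.4 against 21.3 to 23.2. In MLL-NRIP3 leukemia 1441753_at read 38.5 to 51.5 in Rictor-deleted against 45.3 to 57.8 in control cells, while 1453775_at read 61.3 to 140.2 against 37.7 to 66.2. The deleted exons are not stated, so these values do not check the labels. Kit, which marks immature cells, read 135 to 157 in Rictor-deleted against 160 to 232 in control MLL-AF9 leukemia, and 406 to 593 in Rictor-deleted against 307 to 390.2 in control MLL-NRIP3 leukemia. Granulocyte markers were detected as well: their summed intensity was 28010 to 30546 in Rictor-deleted against 9040 to 13086 in control MLL-AF9 leukemia, with 8 of 8 markers tested called higher, and 1623 to 1932 in Rictor-deleted against 4812 to 21061 in control MLL-NRIP3 leukemia, with 3 of 8 called lower. Ly6g was not analysed here. In MLL-AF9 leukemia 6 of 8 monocyte and macrophage markers and 3 of 5 progenitor and leukemia markers were called lower, as were 2 of 4 mast cell and eosinophil markers (sums of 421 to 547 in Rictor-deleted against 1122 to 1254 in control cells) and 2 of 5 B cell markers (1180 to 1301 against 1423 to 1595). In MLL-NRIP3 leukemia 1 of 5 progenitor and leukemia markers was called higher. So were 1 of 4 mast cell and eosinophil markers (sums of 486 to 1824 in Rictor-deleted against 367 to 419 in control cells) and 1 of 3 platelet markers (141 to 172 against 71.2 to 80.3). Of the B cell markers there, 1 of 5 was called lower (78.5 to 119 against 228 to 1164). Erythroid markers had summed intensities of 26.8 to 42.4 over the 12 arrays, and of the 2 tested 0 were called. A pair of MLL-NRIP3 control arrays, 1 and 2, stood apart. They had mean log2 signals of the hybridization controls of 11.2 and 10.6 and Gapdh 5′ to 3′ ratios of 0.562 and 0.738. The remaining 4 MLL-NRIP3 arrays ranged over 9.31 to 9.53 for the controls and 0.881 to 0.965 for the ratio. The number of arrays limits the precision, and in sorted bulk cells fewer cells of a type and less RNA per cell cannot be told apart.

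Promoter sequences show how widely the TOP pattern can be read around the annotated starts of these genes. RefSeq (GRCm38.p6) promoters were found for 40 of the 45 members. A run of 8 or more pyrimidines in the 50 bases from 30 before to 20 from the start on was present in 21 of the 40 members (52.5%) and in 22.9% of 27025 genes of the same table, counting a gene if any of its annotated starts held the run. The hexamer CTTTCC on the same strand in that window occurred in 17.5% of members and 2.9% of all genes. In the whole 300 bases and on both strands, CCGGAAG, which holds the core bound by Ets factors, occurred in 50.0% of members and 9.9% of all genes, and AAGATGGC, which resembles YY1 sites, in 7.5% and 3.2%. Such a match describes letters, not a bound site. The windows of 8 members that the results below turn on, or that show the range of the pattern, are printed 5′ to 3′ with the longest pyrimidine run in capitals and the annotated start at base 31.
Rps25, chr9:44407684-44407733, plus strand: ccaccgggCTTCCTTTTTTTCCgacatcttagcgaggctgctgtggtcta
Rps6, chr4:86857348-86857397, minus strand: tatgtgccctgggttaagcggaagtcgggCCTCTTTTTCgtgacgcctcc
Rplp2, chr7:141447621-141447670, plus strand: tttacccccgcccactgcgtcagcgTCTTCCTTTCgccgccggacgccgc
Rpl7a, chr2:26910777-26910826, plus strand: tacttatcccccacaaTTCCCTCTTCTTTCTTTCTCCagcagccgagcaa
Rpl38, chr11:114668550-114668599, plus strand: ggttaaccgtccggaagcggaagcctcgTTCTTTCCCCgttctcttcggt
Rpl35, chr2:39005112-39005161, minus strand: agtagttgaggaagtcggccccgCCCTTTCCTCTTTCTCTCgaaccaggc
Rpl41, chr10:128549149-128549198, minus strand: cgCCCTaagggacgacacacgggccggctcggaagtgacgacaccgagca
Rps9, chr7:3704011-3704060, plus strand: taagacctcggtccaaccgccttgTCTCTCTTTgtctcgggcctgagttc
The run spans the annotated start in Rps6, Rplp2, Rpl7a, Rpl38, Rpl35 and Rps9, ends upstream of it in Rps25, and is only 4 bases long in Rpl41. Members with such a run had a median log2 fold change of -0.03 in MLL-AF9 leukemia (16 of 20 tested negative), against -0.05 without it (15 of 17), and in MLL-NRIP3 leukemia the medians were -0.01 and 0.002.

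Most ribosomal protein probe sets were among the brightest on the array, and the bright ones varied little between arrays. Of the 42 members tested, 34 had a mean intensity of 1000 or more over the 12 arrays, and all 34 lay in the top 1% of probe sets on every array except MLL-NRIP3 Control 1, where 33 did. Their intensities are linear and belong to each probe set, so they do not rank transcripts against each other. The median standard deviation between the 3 arrays of a group, on the scale of log2(intensity + 16), was 0.030 over these 34 members in Rictor-deleted and 0.027 in control MLL-AF9 leukemia, and 0.032 in Rictor-deleted and 0.046 in control MLL-NRIP3 leukemia. Over the 463 genes of 1000 or more it was 0.045 in Rictor-deleted and 0.065 in control MLL-AF9 leukemia, and 0.092 in Rictor-deleted and 0.125 in control MLL-NRIP3 leukemia. The 8 dimmer members varied more, with medians of 0.087, 0.128, 0.180 and 0.184 in those 4 groups, against 0.062, 0.076, 0.136 and 0.146 over all 12573 genes tested. How far the signal still follows RNA at the top of the scale was not tested.

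The 8 dimmer members were Rpl12, Rpl14, Rpl27a, Rpl37, Rpl39, Rps6, Rps25 and Rps27. For each of the 8, the array also holds a probe set of 1000 or more whose annotation lists the gene beside other symbols, and how much of that signal comes from the gene itself was not tested. Rps16 was left out of the tests at 2.07 to 3.91 on its own probe set, and a probe set listing Rps16 beside Rps16-ps2 and LOC100862433 had a mean of 5070. These shared probe sets were looked up after the values of the dim members had been seen.

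In MLL-AF9 leukemia, deletion of Rictor left the ribosomal protein transcripts close to their control levels. Of 42 members, 1 was called, Rps25, which was lower, against 8.26% of all genes tested (3.8% higher and 4.46% lower). The members' median log2 fold change was -0.04, against -0.01 over all genes, and 34 of 42 (81.0%) were negative, against 54.3% of all genes. The fold changes of the 34 bright members ran from -0.13 for Rps15 to 0.04 for Rps18, and each 95% confidence interval lay within 0.25 of 0 on the log2 scale, so the widest bound was a change of 1.18-fold. The Rps18 value came from 1455572_x_at. Its similarly bright probe sets 1435712_a_at and 1448739_x_at had the opposite sign, at -0.11 and -0.09 (adjusted p = 0.13 and 0.19 over all probe sets). In a fit of all 12 arrays, Rps25 was again the member called (adjusted p = 0.0389), against 1.4% of all genes. Unadjusted p was under 0.05 in 5 of 42 members (11.9%), against 21.8% of all genes.

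Rps25 encodes eS25, a 40S protein on the head of the subunit that some viral and cellular internal ribosome entry sites need to start translation. Its own probe set, 1430978_at, read 231, 239 and 250.2 in Rictor-deleted MLL-AF9 leukemia, against 346, 340.3 and 325 in control leukemia. The groups did not overlap, and the log2 fold change was -0.46 ± 0.060 (SE), or 1.38-fold lower (limma, adjusted p = 0.000706). In MLL-NRIP3 leukemia it read 1011, 838 and 757 in Rictor-deleted cells, against 948, 854 and 987 in controls, which overlapped (log2 fold change -0.10 ± 0.13, adjusted p = 0.71). A second probe set, 1451068_s_at, is annotated to Rps25 and to Gm6988 and Gm4963, and it was bright. It read 2906, 2670.3 and 2936.5 in Rictor-deleted MLL-AF9 leukemia, against 2951, 2919 and 2944 in controls, with a log2 fold change of -0.05 ± 0.044 (SE, adjusted p = 0.59 over all probe sets). The lower signal of Rps25 was thus seen on 1430978_at and not on the brighter shared probe set, and the difference between the probe sets was not tested.

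**Figure D1:**
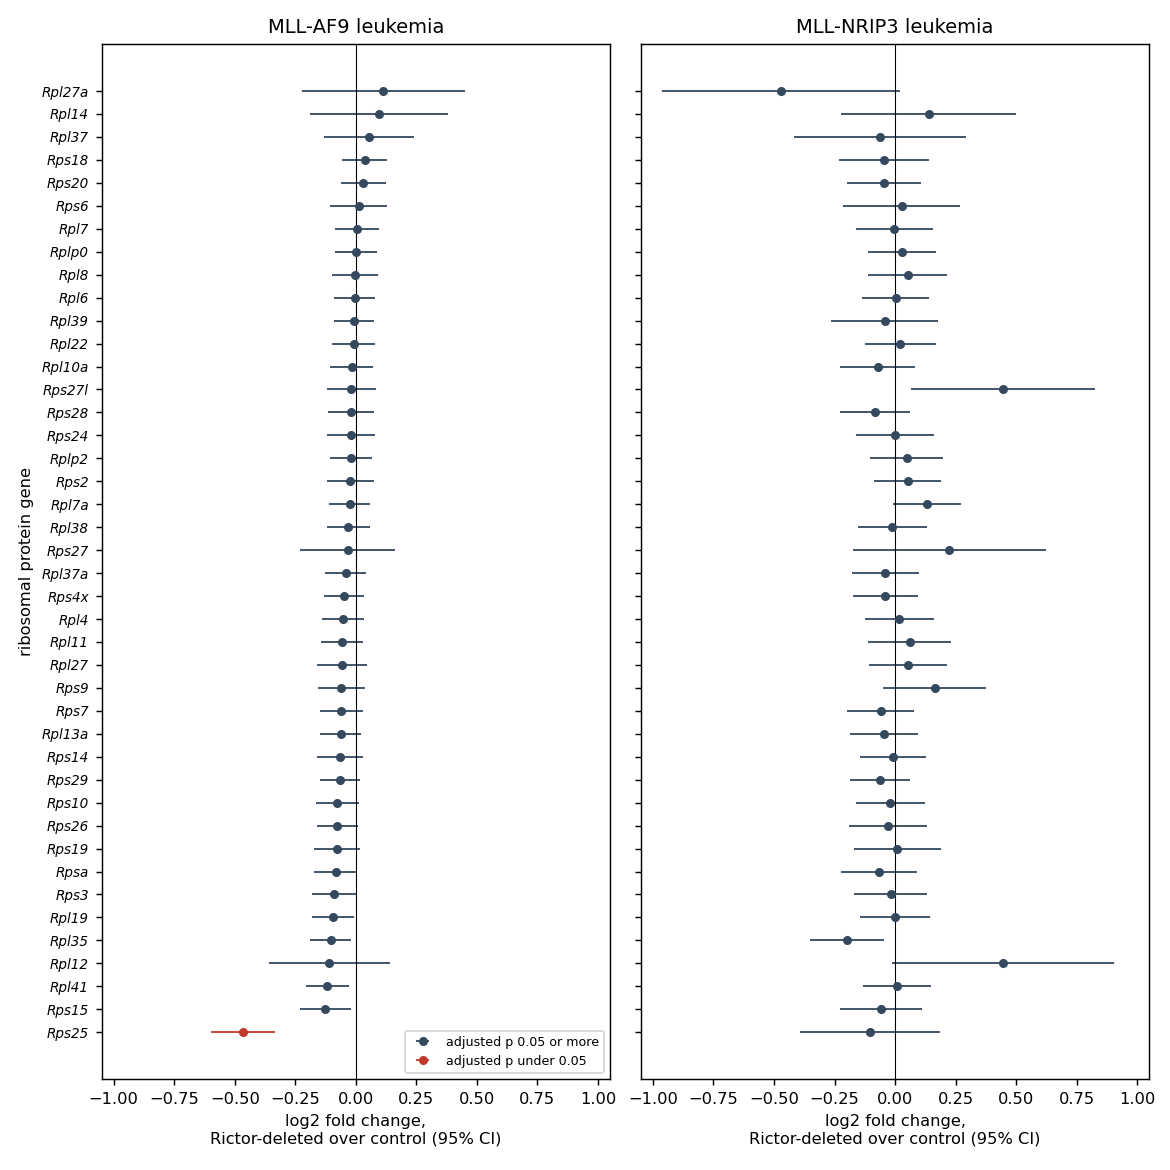
Log2 fold change of the 42 ribosomal protein genes tested, Rictor-deleted over control, with 95% confidence intervals, in MLL-AF9 (left) and MLL-NRIP3 leukemia (right), ordered by the MLL-AF9 value. Points past an adjusted p of 0.05 are red. Rps25 at -0.46 is the called point in MLL-AF9 leukemia and no member is called in MLL-NRIP3 leukemia, where the widest intervals belong to dim probe sets and to Rps27l.

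A small downward shift ran through many members in MLL-AF9 leukemia. In 15 of 42 members (35.7%) the 3 Rictor-deleted values all lay below the 3 control values, against 15.7% of all genes tested, and in 0 members they all lay above, against 11.4%. The 15 were Rpl4, Rpl11, Rpl13a, Rpl19, Rpl35, Rpl41, Rps3, Rps4x, Rps7, Rps10, Rps15, Rps25, Rps26, Rps29 and Rpsa. Apart from Rps25 none of them was called, and the shifts were small. The count rests on the brightest probe set of each gene, and further probe sets differed. With overlap, 1438859_x_at of Rps29 gave 0.03, 1438723_a_at of Rps10 gave -0.01 and 1422623_x_at of Rpl41 gave -0.10. Without overlap, 1416089_at of Rps15 gave -0.08. Rpl41, a very short 60S protein, read 3711, 3754 and 3730.5 in Rictor-deleted cells, against 3912, 4108 and 4140 in controls (log2 fold change -0.12 ± 0.041, SE, adjusted p = 0.11). The shift was uneven between arrays. Array 2 of the Rictor-deleted group had 40 of 42 members below the mean of the 6 MLL-AF9 arrays and array 1 had 34, while array 3 had 18. Among the controls the numbers were 5, 12 and 18 on arrays 1, 2 and 3, so that Rictor-deleted array 3 and control array 3 did not differ in this count. With any of the 6 arrays left out, the median of the members stayed between -0.05 and -0.03. It was -0.02 with arrays centred on their median and -0.05 after quantile normalization. Granulocyte markers were higher, and monocyte, progenitor, mast cell and B cell markers lower, in the same Rictor-deleted arrays, as given above, and their part in the shift was not tested.

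**Figure D2:**
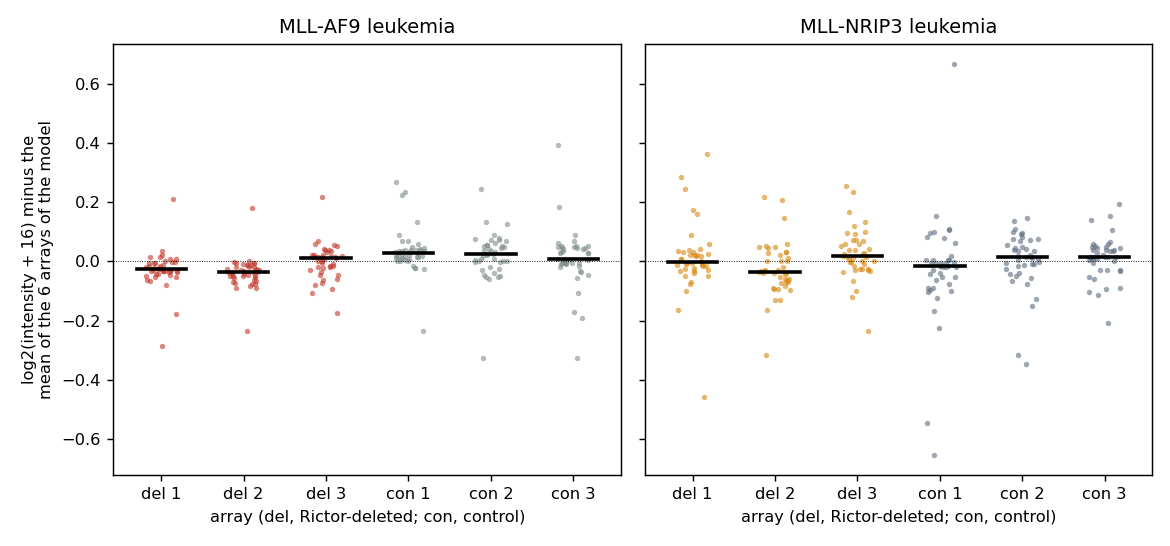
Each point is a ribosomal protein gene on 1 array, as log2(intensity + 16) minus the mean over the 6 arrays of its model, and bars are medians over the 42 members. In MLL-AF9 leukemia the medians of Rictor-deleted arrays 1 and 2 are -0.03 and -0.04 and that of array 3 is 0.01, against 0.03, 0.03 and 0.01 on control arrays 1, 2 and 3.

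In MLL-NRIP3 leukemia, 0 of 42 members were called, against 1.53% of all genes. The median log2 fold change was -0.01, against -0.00047 over all genes, with 23 of 42 negative (54.8%, against 50.1%). Unadjusted p was under 0.05 in 2 members, Rpl35 and Rps27l (4.76%, against 17.7% of all genes). In a fit of all 12 arrays these 2 members passed the test, Rpl35 lower and Rps27l higher (adjusted p = 0.014 and 0.0461), but there 13.8% of all genes did, and on simulated data that fit made far more false calls in MLL-NRIP3 leukemia than its threshold allows. Leaving out Rps27l, the bright members ran from -0.20 for Rpl35 to 0.16 for Rps9, and 30 of these 33 had a 95% interval within 0.25 of 0. The 3 Rictor-deleted values lay above all controls in Rpl7a and Rpl12 (4.8% of members, against 9.7% of all genes) and below them in Rpl35, Rps4x, Rps7 and Rps29 (9.5%, against 12.7%).

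Those 4 members lay below the controls in both models (9.5% of members), against 3% of all genes tested. Rpl35, a 60S protein at the exit of the tunnel for the new chain, read 3622, 3675 and 3571 in Rictor-deleted against 3826, 3923 and 3937 in control MLL-AF9 leukemia, and 3993, 3910.5 and 4093 in Rictor-deleted against 4593, 4751 and 4438 in control MLL-NRIP3 leukemia. Its log2 fold changes were -0.10 ± 0.039 and -0.20 ± 0.067 (SE, adjusted p = 0.14 and 0.18). A further probe set of the gene, 1436840_x_at, gave -0.05 and -0.26 (adjusted p = 0.49 and 0.13), whereas 1416243_a_at, similarly bright, gave -0.04 in both models. Rps4x, the X-linked copy of the 40S protein eS4, read 4337, 4348 and 4359 in Rictor-deleted against 4466, 4476 and 4549.5 in control MLL-AF9 leukemia (log2 fold change -0.05), and 6063, 6018 and 6169 against 6187, 6334 and 6237 in MLL-NRIP3 leukemia (-0.04). For Rps29, the further probe sets 1437413_x_at and 1438859_x_at gave -0.03 and 0.03 in MLL-AF9 leukemia, with overlap, and -0.18 and -0.18 in MLL-NRIP3 leukemia. None of these differences passed the test.

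Rps27l had the largest change among the bright members in MLL-NRIP3 leukemia. It encodes a close relative of the 40S protein eS27 and is a target of the tumour suppressor TRP53. It read 3165, 3021 and 2912 in Rictor-deleted cells, against 1770, 2081 and 2971 in controls (log2 fold change 0.45 ± 0.17, SE, adjusted p = 0.22). The groups overlapped, since control array 3 lay above the lowest Rictor-deleted value, and the low values were those of control arrays 1 and 2, which also had the high hybridization control signals and the low Gapdh ratios. Without control array 3 the log2 fold change was 0.65 (adjusted p = 0.010). The controls left there are arrays 1 and 2, and 862 of all genes tested were called, against 192 with all arrays. Without control arrays 1 and 2, which leaves 1 control array, the log2 fold change of Rps27l was 0.03, given as a value with no test. Its further probe sets, 1423254_x_at and 1435429_x_at, gave 0.27 and 0.28. In MLL-AF9 leukemia it read 1660, 1595 and 1643 in Rictor-deleted cells, against 1666, 1707 and 1590 in controls, a log2 fold change of -0.02. The paralog Rps27 was dim on its own probe set, at 123, 119.8 and 92.1 against 110.4, 76.3 and 94.1 in MLL-NRIP3 leukemia (0.22 ± 0.17, SE, adjusted p = 0.54). A bright probe set listing Rps27 beside Rps27rt, 1415716_a_at, went the other way there. It read 3259, 3639 and 3201 in Rictor-deleted against 4687, 4124 and 3806 in control cells, without overlap. Its log2 fold change was -0.32 ± 0.089 (SE, adjusted p = 0.14 over all probe sets), and -0.15 in MLL-AF9 leukemia. How much of that signal comes from Rps27 was not tested.

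The difference between the responses, MLL-NRIP3 minus MLL-AF9, was called in 0 of 42 members, against 4.29% of all genes tested. The median was 0.04, against 0.01 over all genes. Of the differences, 32 of 42 were positive, against 6458 of 12573 over all genes. The lowest adjusted p was 0.16, for Rpl7a, a 60S protein near the tunnel exit, which read 5748, 5693 and 5908 in Rictor-deleted against 5187, 5232 and 5404 in control MLL-NRIP3 leukemia (log2 fold change 0.13), and 3541, 3575 and 3658 against 3627, 3702 and 3639 in MLL-AF9 leukemia (-0.03). Rpl12 and Rpl27a had differences of 0.56 and -0.58, with adjusted p of 0.25 and 0.34. Both are dim probe sets that varied between replicates: Rpl27a read 315, 349 and 462 against 707, 484 and 407 in MLL-NRIP3 leukemia.

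Over the 22 members of the 60S subunit the median log2 fold change was -0.02 in MLL-AF9 and 0.01 in MLL-NRIP3 leukemia, and over the 20 of the 40S subunit it was -0.06 and -0.02. In MLL-NRIP3 leukemia 9 of the 22 and 14 of the 20 were negative. The difference between the subunits was not tested. Rps6, the 40S protein phosphorylated by S6 kinase below mTORC1, read 359.6, 363 and 375 in Rictor-deleted against 360.5, 365 and 363 in control MLL-AF9 leukemia, and 545, 543 and 522 against 563, 528 and 489 in MLL-NRIP3 leukemia. Its 95% intervals were -0.11 to 0.13 and -0.21 to 0.27 on the log2 scale. This own probe set of Rps6 is dim. The brightest of its 9 shared probe sets, 1416141_a_at, is annotated to Rps6 and Rps6-ps4. It read 5899, 5888 and 5843 in Rictor-deleted against 6024, 6054 and 6304 in control MLL-AF9 leukemia, without overlap. Its log2 fold changes were -0.06 and -0.02 (adjusted p = 0.35 and 0.87 over all probe sets). Rplp0 and Rplp2, of the stalk that recruits elongation factors, had log2 fold changes of 0.002 and -0.02 in MLL-AF9 and 0.03 and 0.05 in MLL-NRIP3 leukemia. Rplp0 read 3565, 3653 and 3738 in Rictor-deleted against 3662, 3642 and 3632 in control MLL-AF9 leukemia, so the groups overlapped.

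Rpl11, which with Rpl5 and the 5S RNA binds MDM2 and so stabilises TRP53, read 3304, 3283 and 3420.1 in Rictor-deleted against 3432, 3494 and 3479.9 in control MLL-AF9 leukemia (log2 fold change -0.06), and gave 0.06 in MLL-NRIP3 leukemia. The genes tested that are mutated in Diamond-Blackfan anemia, 11 of them, were called in 0 cases in either model, against 8.26% and 1.53% of all genes, with medians of -0.06 and -0.02. Rps19, the most often mutated of them in humans, read 3472, 3308 and 3444 against 3644, 3689 and 3464 in MLL-AF9 leukemia (-0.08, 95% interval -0.17 to 0.02) and gave 0.01 in MLL-NRIP3 leukemia. Rps14, lost in a human myelodysplastic syndrome, gave -0.07 and -0.01. Rpsa, also known as the laminin receptor precursor, gave -0.08 and -0.07, Rpl22, a 60S protein needed for T cell development in mice, gave -0.01 and 0.02, and Rpl38, whose loss in mice disturbs the translation of Hox mRNAs, gave -0.03 and -0.01. Further Rpl22 probe sets, the dimmer 1416603_at and 1448398_s_at, gave -0.11 and -0.28 in MLL-AF9 leukemia (adjusted p = 0.21 and 0.070 over all probe sets). In MLL-NRIP3 leukemia they gave -0.02 and 0.15. None of these passed the test in either model.

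Paralogs known for narrow expression were at the floor. Rpl39l, known from testis, read 4.68 to 4.94 in Rictor-deleted against 5.11 to 5.55 in control MLL-AF9 leukemia, and 4.24 to 5.94 against 3.70 to 6.19 in MLL-NRIP3 leukemia. Rpl3l, known from muscle, read 2.65 to 4.80 in Rictor-deleted cells and 3.02 to 4.18 in controls over both models. Both lay under the filter at an intensity of 7.70, the 40th percentile of all probe sets. Rpl39 itself read 8.36 to 9.22 in Rictor-deleted against 8.32 to 9.5 in control MLL-AF9 leukemia on its own probe set, while the probe set it shares with Gm32211 had a mean of 5393.

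The members had 99 probe sets of their own, and tested one by one they disagreed in a few places. Of the 93 above the filter, 2 were called in MLL-AF9 leukemia, against 5.61% of all probe sets (2.7% higher and 2.91% lower): that of Rps25, lower, and 1434624_x_at of Rps9, higher. The latter read 1465, 1372 and 1492 in Rictor-deleted cells, against 1125, 963 and 1138 in controls, a log2 fold change of 0.42 ± 0.066 (SE, adjusted p = 0.0037). The brightest Rps9 probe set, 1433689_s_at, read 2899, 2799 and 2910.2 against 3076, 3032 and 2866, a change of -0.06, so the probe sets of this gene differed in sign. Its dim probe set 1426958_at gave -0.15 (adjusted p = 0.36). In MLL-NRIP3 leukemia 0 of 93 were called, against 0.878% of all probe sets. The largest change there was that of 1433530_at of Rpl41, which read 235, 258 and 144 in Rictor-deleted against 94.2, 79.1 and 95.9 in control cells (log2 fold change 1.08 ± 0.21, SE, adjusted p = 0.061). Its difference between the models of 1.13 passed the test (adjusted p = 0.020), the only such call among the 93, against 3.31% of all probe sets. The brightest probe set of Rpl41 read 6786, 6905 and 6617 against 6774, 6493 and 6931 in MLL-NRIP3 leukemia, a change of 0.01.

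**Figure D3:**
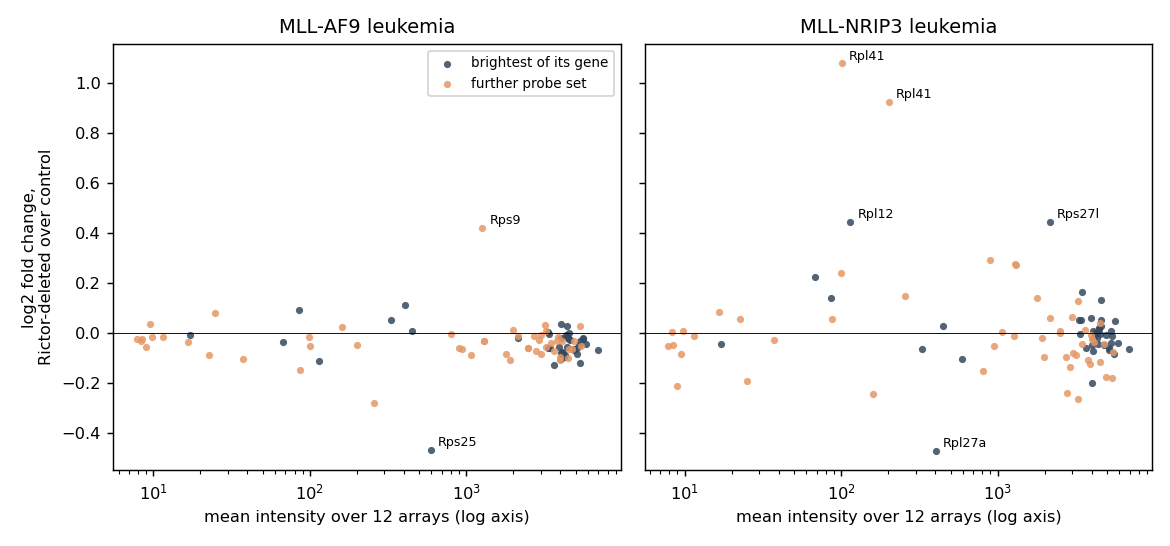
Log2 fold change, Rictor-deleted over control, of the 93 ribosomal protein probe sets tested against their mean intensity over 12 arrays (log axis), in MLL-AF9 (left) and MLL-NRIP3 leukemia (right). Blue points are the brightest probe set of a gene and orange points its further probe sets. The bright probe sets gather near 0, and changes beyond 0.4 belong to the labelled Rps9, Rps25, Rpl12, Rpl27a, Rpl41 and Rps27l.

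**Figure D4:**
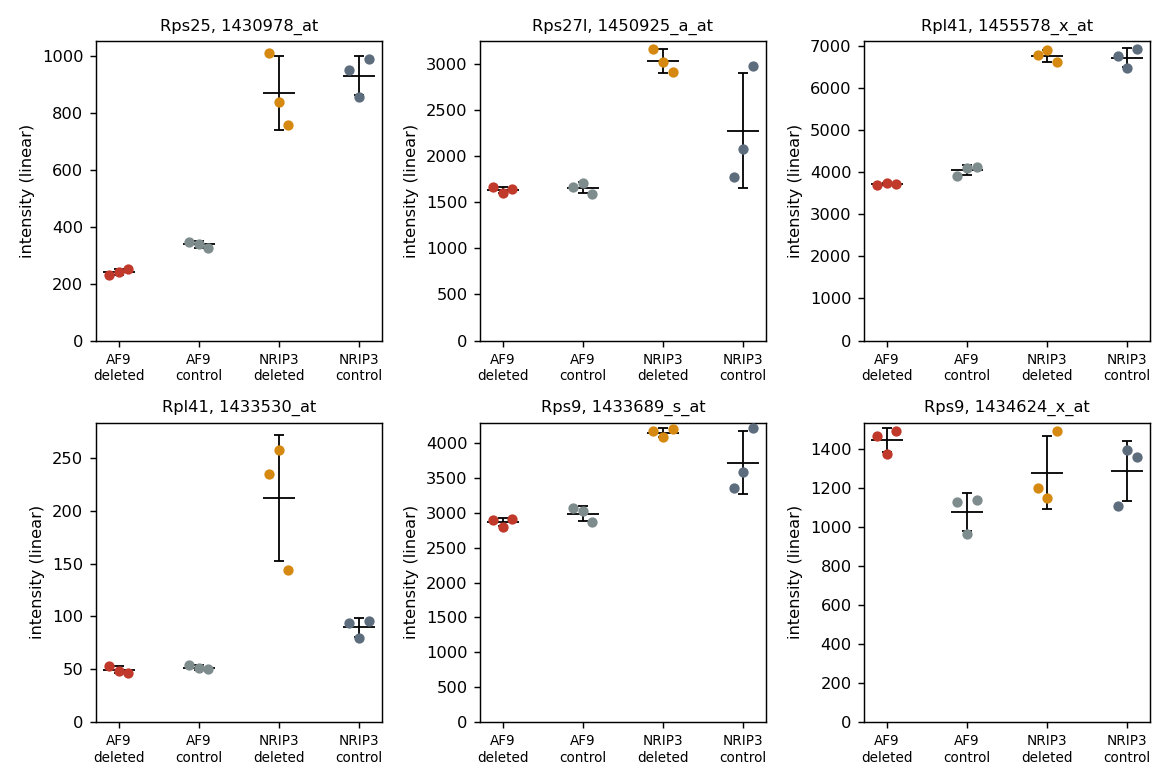
Linear intensity on each array, with mean and SD of 3 arrays, for 6 probe sets of Rps25, Rps27l, Rpl41 and Rps9, with groups from left to right MLL-AF9 Rictor-deleted, MLL-AF9 control, MLL-NRIP3 Rictor-deleted and MLL-NRIP3 control. The dim Rpl41 probe set 1433530_at is at 144 to 258 in Rictor-deleted MLL-NRIP3 cells against 79.1 to 95.9 in controls, while the bright 1455578_x_at is level.

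The probe sets that list a gene under the rule beside other symbols, 110 in all, had medians near those of the members' own probe sets (-0.04 in MLL-AF9 and -0.01 in MLL-NRIP3 leukemia). For single genes the values could differ, as for Rps25 and Rps27 above. Rpl12 gave 0.45 on its own dim probe set in MLL-NRIP3 leukemia and -0.05 on the shared 1416026_a_at. Of 106 above the filter, 1 was called in MLL-AF9 leukemia, lower, against 5.61% of all probe sets, and 0 in MLL-NRIP3 leukemia, against 0.878%, with medians of -0.03 and -0.004. The called probe set, 1450150_a_at, is annotated to Rpl13 and Rpl13-ps6 and read 3456, 3431 and 3228 in Rictor-deleted against 3780, 3938 and 3709 in control MLL-AF9 leukemia (log2 fold change -0.18 ± 0.041, SE, adjusted p = 0.031). All 106 changes in MLL-AF9 leukemia were under 0.25 in size.

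Genes that work beside the ribosomal proteins were read from companion lists. Of 4 ribosomal proteins named outside the rule, such as Fau and Rps3a1, 0 were called in either model. Of 18 other TOP mRNAs, which encode elongation factors, subunits of eIF3 and histone and RNA chaperones, 0 were called in either model, with medians of -0.04 and -0.01. Of 20 initiation factors without a TOP start and of 23 assembly partners and chaperones of ribosomal proteins, 0 were called in either model. Of 76 mitochondrial ribosomal proteins, which build a separate ribosome, 0 were called in either model, with medians of 0.03 and 0.02. The background shares called were 8.26% and 1.53%, as above.

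Several of these genes are named for their role or for the lowest p of their list. Eef1a1, the factor that brings aminoacyl-tRNA to the ribosome, read 4980, 4986 and 5006 in Rictor-deleted against 5118, 4957 and 4990 in control MLL-AF9 leukemia (log2 fold change -0.01). Eef1d, which helps to recharge that factor, had the lowest p of the list there, at 873, 865 and 827 against 960, 982 and 942 (-0.17 ± 0.049, SE, adjusted p = 0.061). Eif4a2, a helicase of the cap-binding complex, read 1546, 1695 and 1304 in Rictor-deleted against 925, 1230 and 1018 in control MLL-NRIP3 leukemia without overlap (0.51 ± 0.14, SE, adjusted p = 0.11), and Eif3f, a subunit of eIF3, gave -0.23 ± 0.072 (adjusted p = 0.16). Among the assembly partners, Ipo7, an import receptor that carries ribosomal proteins into the nucleus, read 718, 717 and 764 against 350, 536 and 520 in MLL-NRIP3 leukemia (0.65 ± 0.16, SE, adjusted p = 0.098), with -0.04 in MLL-AF9 leukemia. Fau, whose product is cleaved into the 40S protein eS30, gave -0.09 and -0.05.

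The mTORC1 branch and the TRP53 response had 1 call each in MLL-AF9 leukemia, of 15 and 10 genes tested, which is near the 8.26% called over all genes. In the mTORC1 branch, Deptor, an inhibitor of both mTOR complexes, was higher in MLL-AF9 leukemia, at 30.8, 35.1 and 29.1 in Rictor-deleted against 24.6, 22.1 and 18.4 in control cells (log2 fold change 0.34 ± 0.082, SE, adjusted p = 0.027). The probe set is dim, and the call was lost without any of 4 of the 6 arrays (adjusted p of 0.056 to 0.11). It was lost in 8 of 21 alternatives in all, with log2 fold changes of 0.09, where its probe sets were averaged, to 0.53. In the TRP53 response, Sesn1, a stress-induced inhibitor of mTORC1, was lower in MLL-AF9 leukemia, at 261, 239.6 and 274 in Rictor-deleted against 343, 352 and 372 in control cells (-0.44 ± 0.066, SE, adjusted p = 0.0018), and gave -0.56 ± 0.16 in MLL-NRIP3 leukemia (adjusted p = 0.13). The Sesn1 call was lost when its probe sets were averaged (adjusted p = 0.079) and in a fit of all 12 arrays (0.11). Cdkn1a, the cell cycle inhibitor most often read for TRP53 activity, gave -0.04 and 0.42 (adjusted p = 0.87 and 0.19). Eif4ebp2, a repressor of cap-dependent translation, read 399, 453 and 428 in Rictor-deleted against 744, 580.3 and 604 in control MLL-NRIP3 leukemia without overlap (-0.57 ± 0.13, SE, adjusted p = 0.077), and gave -0.06 in MLL-AF9 leukemia.

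**Figure D5:**
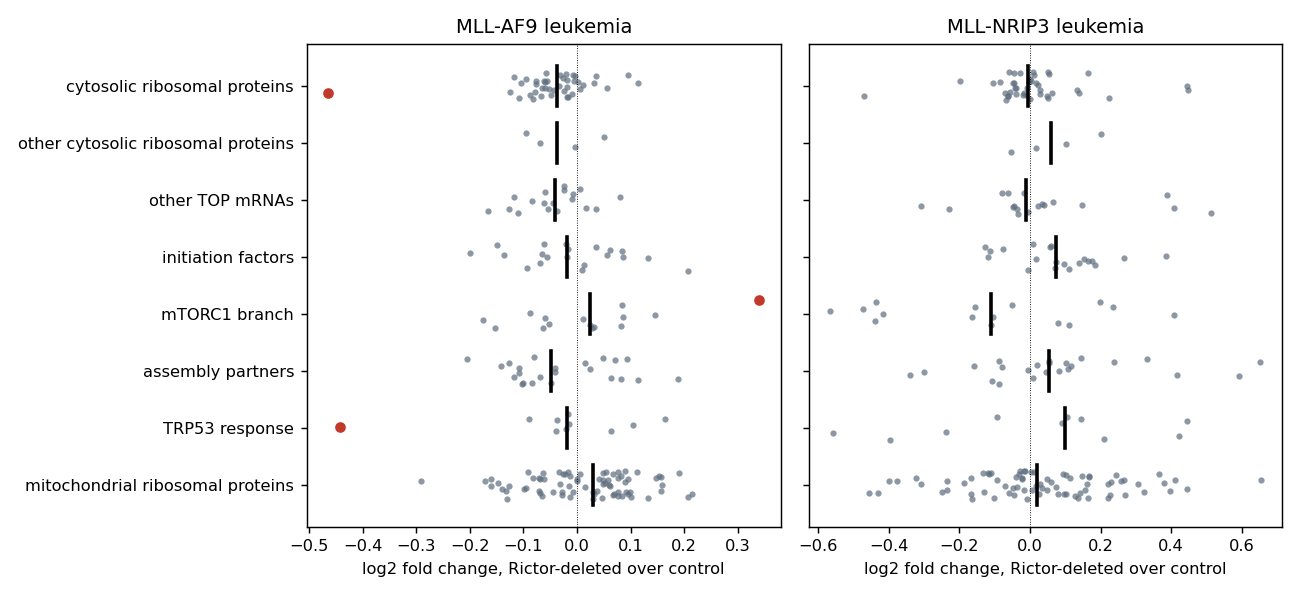
Log2 fold change, Rictor-deleted over control, of each gene tested in the ribosomal protein list and 7 companion lists, in MLL-AF9 (left) and MLL-NRIP3 leukemia (right). Bars are medians and red points passed an adjusted p of 0.05 (Rps25, Deptor and Sesn1). Most ribosomal protein genes lie in a narrow band around 0 in both panels, with median sizes of change of 0.05 in each, apart from a few dim members and Rps27l.

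Between the models, the arrays were not on a shared scale, since the 6 arrays of each model had nearly 1 distribution of their own, so levels are given as a description only. After quantile normalization of the 12 arrays, the members' median log2 difference, MLL-NRIP3 minus MLL-AF9, was 0.08 in Rictor-deleted and 0.03 in control leukemia, against 0.05 for all genes in both. As deposited, these medians were 0.54 and 0.52, against 0.46 and 0.47 for all genes. Rps25 on 1430978_at had 1.28 in Rictor-deleted and 0.93 in control leukemia after quantile normalization, Rps27 had 0.91 and 0.64, and Rpl37 had -0.49 and -0.39. These values came from the dim own probe sets of the genes. As deposited, the bright shared Rps27 probe set 1415716_a_at had means of 3366 in MLL-NRIP3 against 2905 in MLL-AF9 leukemia with Rictor deleted, and 4206 against 3210 in controls. The shared probe sets were not compared between the models after quantile normalization.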

How the data were processed

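The deposited table holds a linear intensity for each of 45101 probe sets on 12 arrays. No label or header used here says how the authors summarised, background-corrected and normalized them. Groups and replicate numbers came from the sample titles. Genes were named from the 34958 probe sets with 1 symbol in the platform annotation (932 had several, 9211 none), with symbols updated by Entrez number through RefSeq GRCm38.p6 (18032 of 18194 genes matched). A floor on mean intensity of 7.70, the 40th percentile over probe sets, removed 5621 genes and kept 12573 for testing on log2(intensity + 16), a scale that understates changes of dim genes. Each model was fitted on its own 6 arrays (4 residual degrees of freedom) with limma 3.58.1 in R 4.3.3 (lmFit, eBayes with a trend), and the difference between the models on 12 arrays (8 degrees of freedom). Tests were 2-sided, with Benjamini-Hochberg adjustment over all genes and calls at an adjusted p under 0.05. With 3 arrays a group, exact permutation reaches no p below 0.1. Tested on simulated data, the fits of single models and of the difference missed many of the smallest changes in MLL-NRIP3 leukemia and for the difference, where false calls also ran somewhat over the threshold, and the fit of all 12 arrays made far too many false calls in MLL-NRIP3 leukemia. Named were all members called, members known for a role or a paralog, and of each companion list the members called or among the 4 with the smallest p; beyond these, members and probe sets were picked after their values were seen. Members and lists were chosen with earlier results of these data known. Alternatives covered normalization, centring, pseudocount, filter, choice of probe sets, moderation, weights, a replicate block, a covariate and left-out arrays. Figures used Python 3.11.15, pandas 2.3.3 and matplotlib 3.10.9.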

Additional observations from a re-analysis of the deposited data

Results flagged for a closer look

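The response of Rpl41 probe set 1433530_at differed between the models by 1.13 on the log2 scale, MLL-NRIP3 minus MLL-AF9 (limma on 12 arrays, adjusted p = 0.020 over all probe sets), with a change of 1.08 in MLL-NRIP3 and -0.05 in MLL-AF9 leukemia. A further dim probe set of the gene, 1454639_x_at, had a difference of 0.97 (adjusted p = 0.056), while the bright 1455578_x_at and 1422623_x_at had 0.13 and 0.14.

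Nap1l1, a histone chaperone with a TOP mRNA, differed by 0.53 (adjusted p = 0.044): it read 1567, 1754 and 1686 in Rictor-deleted against 1081, 1383 and 1316 in control MLL-NRIP3 leukemia, and 709.8, 808 and 737 against 793, 782 and 892 in MLL-AF9 leukemia. Mrpl44, a protein of the large mitochondrial subunit, differed by -0.54 (adjusted p = 0.039): it read 605, 619 and 544 in Rictor-deleted against 923, 777 and 713 in control MLL-NRIP3 leukemia, and 465, 450.2 and 504 against 437, 442 and 428 in MLL-AF9 leukemia. Each was the only gene of its list (18 and 76 tested) called for the difference, against 4.29% of all genes. Over the alternatives run, the Nap1l1 call was lost in 17 of 27 (adjusted p of 0.023 to 0.50) and the Mrpl44 call in 15 of 27 (0.0038 to 0.15).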

How the results depend on the processing

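In MLL-AF9 leukemia Rps25 kept its call under every alternative except an unmoderated test, which called 0 members (Rps25 at an adjusted p of 0.070) and 0 of all genes; quantile normalization called 2 (Rps29 as well, adjusted p = 0.042), and leaving out each array gave 1 to 2 (Rpl27a without control array 3, adjusted p = 0.049). The median ran from -0.0510 to -0.0297 with arrays left out, and was -0.0218 with arrays centred and -0.0515 after quantile normalization. In MLL-NRIP3 leukemia 1 member was called without probe sets ending in _x_at or _s_at (Rpl41 on 1433530_at), 2 in a fit of all 12 arrays (Rpl35 lower, Rps27l higher, against 13.8% of all genes called), 4 with array weights (Rpl27a, Rpl35, Rps27, Rps27l), and 0 to 1 with arrays left out (Rps27l without control array 3). Its median of -0.01 became 0.0249 with arrays centred and -0.0353 with a covariate for the hybridization controls, and ran from -0.0226 to 0.00813 with arrays left out, so it has no settled sign. For the difference, 1 member was called when probe sets were averaged per gene and 1 without _x_at and _s_at probe sets (Rpl41 in both), 1 in the unmoderated test (Rpl7a), 6 with array weights, and 0 to 2 with arrays left out (Rps27l and Rps9 without MLL-NRIP3 control array 3). Its median was 0.0629 after quantile normalization, 0.0691 without _x_at and _s_at probe sets and 0.00992 with the covariate, and ran from 0.0277 to 0.0467 with arrays left out. The number of all genes called, of 12573 tested, moved more, and the members called in a setting are to be read against it. In MLL-AF9 leukemia 1039 became 176 in the fit of all 12 arrays. In MLL-NRIP3 leukemia 192 became 1734 in that fit, 3009 with array weights, 862 without control array 3 and 30 with the covariate. For the difference 539 became 2529 with array weights and 1405 without MLL-NRIP3 control array 3. The cause of these changes was not tested. With a replicate block the counts stayed at 1, 0 and 0 (Rps25 at an adjusted p of 0.0025). Same-numbered arrays of a model did not deviate together from their group means (correlations of -0.14 to 0.056). With 3 arrays a group this cannot show that they were unpaired, and the labels used here do not say whether the numbers pair the arrays. Of 2922 values of members under alternatives, 21 gained and 1 lost a call, 0 calls reversed, and 187 changed sign with no call in either. Dim probe sets are limited by their closeness to the floor, and bright ones may be limited at the top of the scale, which was not tested.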

Other observations

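Of the 28 ribosomal protein probe sets of a single gene with a mean intensity under 1000 that were tested, 14 were higher and 14 lower in value in Rictor-deleted than in control MLL-NRIP3 leukemia. Of these 28, 0 were called (limma, adjusted p under 0.05), against 0.878% of all probe sets tested. Of the 27 such probe sets annotated to several genes, 13 were higher and 14 lower in value, and 0 were called, against the same 0.878%. The log2 fold changes ran from -0.47 to 1.08 in the first set and from -0.44 to 0.84 in the second. At the ends of the second set, picked after their values were seen, 1438527_at, annotated to Rpl3, Gm5879 and Gm12816, read 315, 332 and 219.6 in Rictor-deleted against 133, 191 and 136 in control cells (0.84 ± 0.20, SE, adjusted p = 0.095), and 1438076_at, annotated to Rpl30 and 4 other symbols, read 89.2, 96.4 and 91.7 in Rictor-deleted against 128, 123 and 141.5 in control cells (-0.44 ± 0.13, SE, adjusted p = 0.16).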
